A study of Mus musculus with 18 samples.

Results

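The complement components and clotting factors that the liver secretes into plasma were examined in bulk RNA sequencing of liver from WT and *Apoe* KO mice under the chronic-plus-binge model. The set holds 41 genes named by symbol as members of the 2 cascades, a rule that uses no threshold on their values, and all 41 were among the 15052 genes of the deposited table. The 18 mice made up 4 groups. WT mice were pair-fed (n = 4) or EtOH-fed (n = 5), and *Apoe* KO mice likewise (n = 5 pair-fed and n = 4 EtOH-fed, the latter numbered 1, 2, 4 and 5). WT mice were C57BL/6 J and the *Apoe* KO line is a knockout, and both were bought from the same supplier. Pair-fed *Apoe* KO mice carried the deletion as well. No source names the 2 lines as littermates, so that effects of genotype and of colony cannot be told apart. All were 10 to 12 weeks old and had 5 days on the liquid control diet. The EtOH-fed mice then drank 5% ethanol by volume for 10 days, were given 5 g/kg of ethanol by gavage on day 11 and were killed 9 h later. Pair-fed mice had the same calories without ethanol and a gavage of 9 g/kg dextrin maltose on day 11.

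Complement is a cascade of plasma proteins that marks microbes and debris. Antibody or sugar patterns start the classical and lectin pathways, C3 is the point where all pathways meet, and the terminal components assemble into the membrane attack complex. Clotting runs in parallel as a cascade of proteases that ends with thrombin cutting fibrinogen, and it is held in check by anticoagulants and undone by plasmin. Hepatocytes make most of these proteins, several of them need vitamin K for activity, and a loss of their synthesis is a known feature of failing liver.

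Each value is a read count per gene that the authors had scaled to a nearly common total (32267493 to 32292618 per mouse) and rounded, called a scaled read count here. The totals do not give the depth, which differed between mice, since the share of the values 1 to 99 that no gene took ran from 0% to 82.8% over the mice. This share was 0%, 0%, 0%, 24.2% and 0% in EtOH-fed WT mice 1 to 5. In EtOH-fed *Apoe* KO mice 1, 2, 4 and 5 it was 0%, 58.6%, 75.8% and 74.7%, so depth differed between these groups. In pair-fed mice it ran from 10.1% to 82.8% in WT and from 0% to 73.7% in *Apoe* KO mice. *Apoe* itself read 611230 to 798431 in the 9 WT mice and 8586 to 108651 in the 9 *Apoe* KO mice. *Alb*, encoding albumin, read 1547096 to 3032672, and none of the 12 hepatocyte markers was at 0 in any group. EtOH-fed *Apoe* KO mouse 1 went against its label. The labels list all mice as female, the methods allow either sex, and this library read 826 for *Xist* against 15227 to 30379 in the other 17, with 1077 for the Y-linked *Ddx3y* against 2 to 118. It also gave the highest value of its group for 29 of the 41 genes. For the set, counts of calls that use EtOH-fed *Apoe* KO mice are therefore given with and without it. The same holds for the medians of comparisons of 2 groups. Single genes are given without it only where this is stated. The other gene lists, the counts by unadjusted p and the counts of genes without overlap include it throughout. Pair-fed WT mouse 4 was the lowest of its group for 27 genes and EtOH-fed WT mouse 5 for 26.

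Groups were compared by limma on log2(value + 1), so that a difference is given on that log2 scale with its SE, and a gene was called when its Benjamini-Hochberg adjusted p over all 15052 genes was under 0.05. Pair-fed *Apoe* KO livers held more of this RNA than pair-fed WT livers, and EtOH-fed *Apoe* KO livers held less of it than pair-fed *Apoe* KO livers. The 41 genes together took 3.16% to 4.17% of the total scaled count in WT mice on the pair-fed diet and 2.986% to 4.067% in those on ethanol. In *Apoe* KO mice the shares were 4.36% to 5.159% without and 3.587% to 4.17% with ethanol. The pair-fed *Apoe* KO range lay above that of every other group. The per-mouse mean of log2(value + 1) over the set, relative to the mean of the pair-fed WT mice, ran from −0.13 to 0.07 in that group and from −0.34 to 0.04 in WT mice on ethanol. In *Apoe* KO mice it ran from 0.30 to 0.42 when pair-fed and from −0.07 to 0.18 on ethanol, with mouse 1 the highest. In bulk RNA, fewer hepatocytes and less RNA per hepatocyte cannot be told apart.

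With ethanol in *Apoe* KO mice, 20 of the 41 genes were called lower and 0 higher, where 6.92% of all genes were called lower. Among the 4328 genes with a mean of at least 1000, a level that 38 of the 41 reach, 13.6% were called lower. The median log2 difference of the 41 genes was −0.38, beside 0.13 over all genes, and 38 of 41 differences were negative. Relative to all genes it was −0.51, also with median-of-ratios size factors. By unadjusted p under 0.05, 27 genes were lower and 0 higher. The share of all genes under this unadjusted cut is not given, here or below. Such counts therefore stand without a background. In 17 genes, all 4 EtOH-fed *Apoe* KO mice lay below all 5 pair-fed *Apoe* KO mice, which held for 6.01% of all genes and 12.2% of those with a mean of at least 1000. Without EtOH-fed *Apoe* KO mouse 1, 23 genes were called lower, with a median of −0.41. Of the 20 calls 19 were kept without it, *Fgg* being lost, and *C4b*, *Serping1*, *Vtn* and *Kng1* were added.

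In WT mice, 6 of the 41 genes were called lower with ethanol and 0 higher, where 6.52% of all genes were called lower and 6.19% higher. Among genes with a mean of at least 1000, 8.18% were called lower, against 14.6% of the set. The median log2 difference was −0.08, beside −0.01 over all genes. By unadjusted p under 0.05, limma gave 2 higher and 10 lower. In 5 genes, all 5 EtOH-fed WT mice lay below all 4 pair-fed WT mice (6.96% of all genes), and in 2 above them (7.43%).

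Between the pair-fed genotypes, 6 of the 41 genes were called higher in *Apoe* KO mice and 0 lower, where 0.87% of all genes were called higher and 0.864% lower, or 1.85% higher of those with a mean of at least 1000. The median log2 difference was 0.33, beside −0.0047 over all genes, and 36 of 41 differences were positive. By unadjusted p under 0.05, 24 genes were higher and 1 lower. All 5 pair-fed *Apoe* KO mice lay above all 4 pair-fed WT mice in 19 genes (4.01% of all genes, 8.43% of those with a mean of at least 1000), and below them in 1, *C8g* (3.02% of all genes). The count of calls depended on single mice. It was 11 without pair-fed WT mouse 3 and 3 without pair-fed WT mouse 2 or 4 or without pair-fed *Apoe* KO mouse 1, 3 or 4. This comparison and that of ethanol in *Apoe* KO mice share the pair-fed *Apoe* KO group, so that the 2 sets of values are not independent.

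Between the EtOH-fed genotypes, 4 of the 41 genes were called higher in *Apoe* KO mice and 0 lower, where 4.25% of all genes were called higher and 0.445% lower, and 3.63% of those with a mean of at least 1000 higher. In these 4 genes and no others the 2 groups did not overlap with *Apoe* KO above (7.12% of all genes). By unadjusted p under 0.05, 8 were higher and 1 lower. The median log2 difference was 0.07, beside 0.11 over all genes. With median-of-ratios size factors, which move the median of all genes in this comparison by −0.13, it was −0.06, so that the sign of the median rests on the scaling. Counted by gene, 13 differences were negative, and 27 with these size factors, but the 4 called genes stayed positive. Without EtOH-fed *Apoe* KO mouse 1 or 4, 2 genes were called, and without mouse 1 the median was 0.0078 with 20 differences negative. A difference of the ethanol response between the genotypes, tested as an interaction over all 18 mice, was called for 1 gene, *Cfp*, where 2.6% of all genes were called with a higher and 0.239% with a lower response in *Apoe* KO mice. The response was more negative in *Apoe* KO than in WT mice for 33 of the 41 genes, and for 13 of them it was positive in WT and negative in *Apoe* KO mice. By unadjusted p under 0.05 the interaction was negative in 11 genes and positive in 2, and none of the 11 passed the adjustment. Without pair-fed WT mouse 3 or EtOH-fed WT mouse 5, 3 genes were called, and without EtOH-fed *Apoe* KO mouse 1, 0 were called, with 34 of the 41 responses more negative in *Apoe* KO mice.

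**Figure D1:**
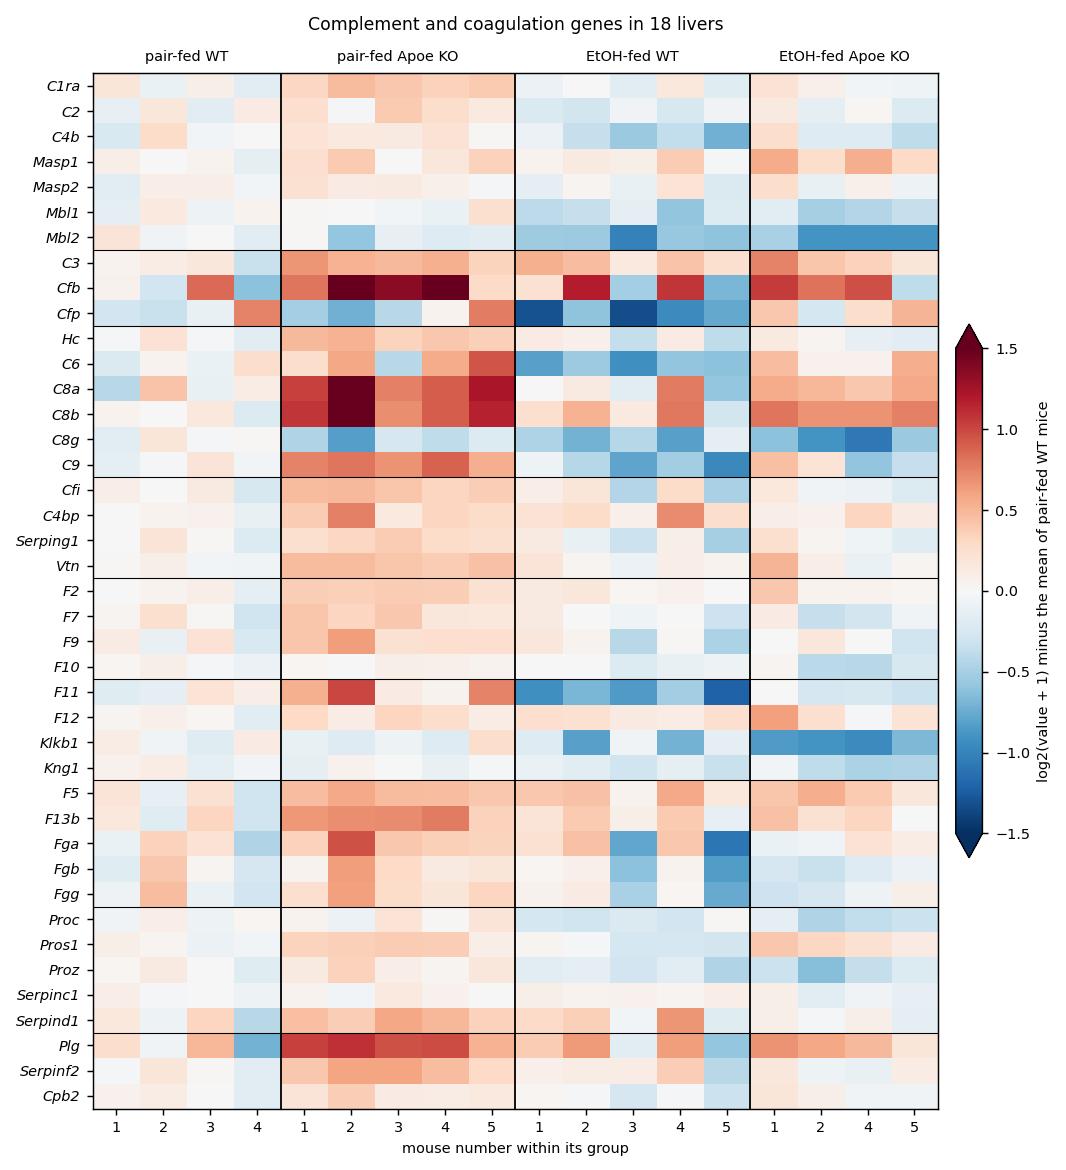
Complement and coagulation genes (rows, in blocks by role) in each of the 18 mice (columns, numbered within their group). Colour is log2(value + 1) minus the mean of the 4 pair-fed WT mice, from −1.5 in blue to 1.5 in red. The pair-fed *Apoe* KO columns are mostly red, and *Cfb*, *C8a*, *C8b* and *Plg* are the most marked, while *C8g* is blue there. *Cfp*, *F11*, *C6* and *Mbl2* are blue in the EtOH-fed WT columns, and *Klkb1*, *Mbl2* and *C8g* in the EtOH-fed *Apoe* KO columns.

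**Figure D2:**
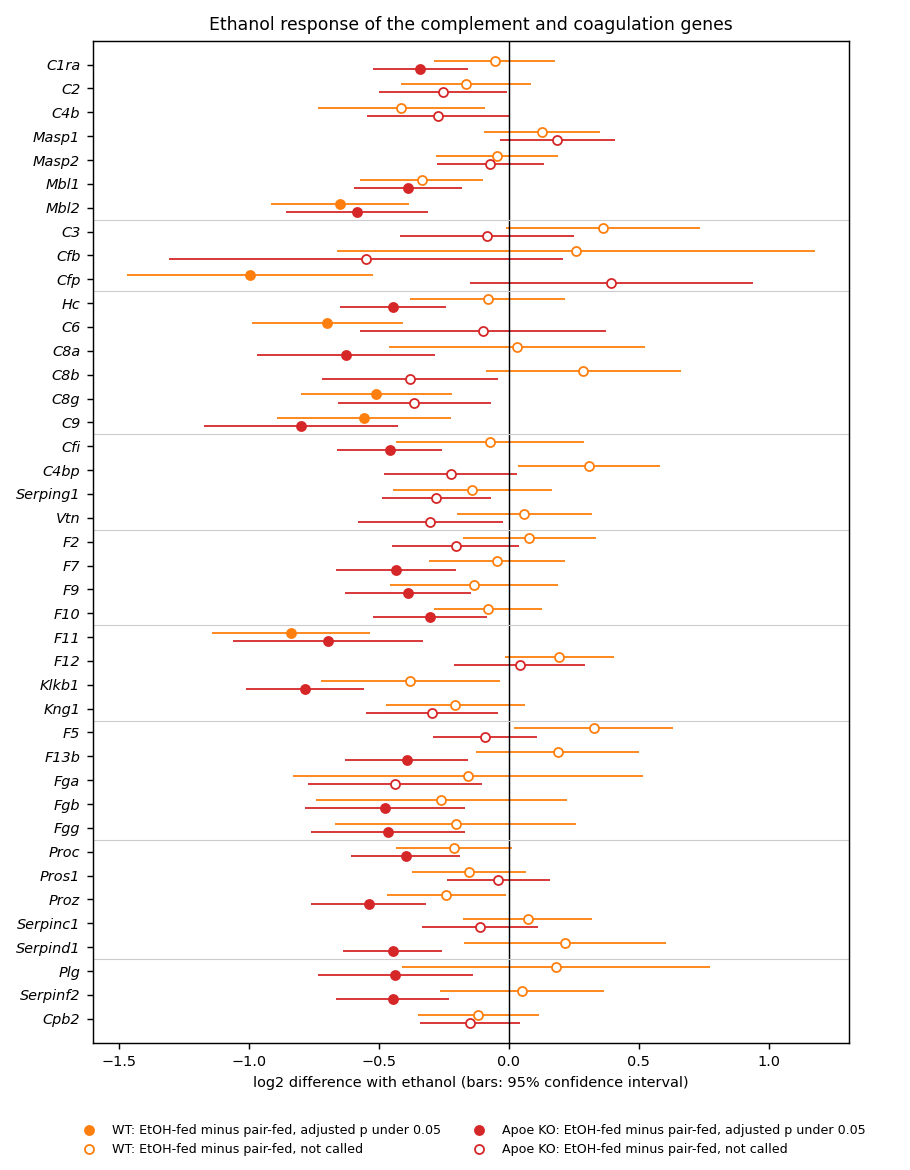
Ethanol response of each gene on the log2(value + 1) scale, EtOH-fed minus pair-fed, in WT (orange) and *Apoe* KO mice (red), with bars for the 95% confidence interval and filled points for an adjusted p under 0.05. Red points lie to the left of zero for 38 of 41 genes and 20 of them are filled, against 6 filled orange points.

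Of the 7 genes that start the classical and lectin pathways, 3 fell with ethanol in *Apoe* KO mice, and 1 of these, *Mbl2*, also fell in WT mice. *Mbl2* encodes one of the mannose-binding lectins that recognise sugars on microbes. *Mbl2* read 21730, 18304, 19110 and 17029 in the pair-fed WT and 19268, 12657, 17399, 16567 and 16846 in the pair-fed *Apoe* KO mice. Under ethanol, *Mbl2* read 13158, 13026, 9418, 12840 and 12463 in the WT and 13527, 10164, 10190 and 10197 in the *Apoe* KO mice. All 5 EtOH-fed WT mice lay below the 4 pair-fed WT mice, while in *Apoe* KO mice the groups overlapped, because EtOH-fed mouse 1 lay above pair-fed mouse 2. The log2 difference with ethanol was −0.65 ± 0.12 (adjusted p = 0.00476) in WT and −0.58 ± 0.13 (adjusted p = 0.0054) in *Apoe* KO mice, a fall by 1.57-fold and 1.5-fold. Without EtOH-fed *Apoe* KO mouse 1, the latter was −0.69 ± 0.12 (adjusted p = 0.00231). The difference between the 2 responses was 0.07 ± 0.18 (adjusted p = 0.897), and its sign turned with median-of-ratios size factors.

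*Mbl1*, the other mannose-binding lectin, ranged from 5826 to 7380 in pair-fed and from 4416 to 5553 in EtOH-fed *Apoe* KO mice, without overlap, with a log2 difference of −0.39 ± 0.10 (adjusted p = 0.0109). In WT mice its difference of −0.34 ± 0.11 (adjusted p = 0.0627) was not called, although those groups did not overlap either. *C1ra*, a protease of the C1 complex, ranged from 7746 to 8718 in pair-fed *Apoe* KO mice and from 5991 to 7274 in those on ethanol, with a log2 difference of −0.34 ± 0.09 (adjusted p = 0.0113). Its near-identical copy *C1rb* read 15 to 82 and *C4a*, that of *C4b*, 248 to 755, so that *C1ra* and *C4b* are uncertain by reads that match both copies. The other 4 genes of the group were called in no comparison. They are *C2* and *C4b*, which form the C3 convertase, and *Masp1* and *Masp2*, the proteases bound to the lectins. With ethanol in *Apoe* KO mice their log2 differences were −0.25 ± 0.12, −0.27 ± 0.13, 0.19 ± 0.10 and −0.07 ± 0.10. *C4b* without EtOH-fed *Apoe* KO mouse 1 gave −0.40 ± 0.10 (adjusted p = 0.0166), a call that is absent with that mouse included. By position, 42.8% of the exon bases of *C2* lie in the same-strand readthrough gene *Gm20547*, where reads can be left uncounted, and 54.9% of those of *Masp2* lie opposite *Tardbp*.

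*C3*, the hub of all pathways, was called in no comparison. *C3* stood at 181696, 187914, 196456 and 138695 in the pair-fed WT and 277018, 249883, 243843, 252368 and 220584 in the pair-fed *Apoe* KO mice. Under ethanol, *C3* stood at 252690, 241328, 192704, 235577 and 205457 in the WT and 292610, 233819, 221102 and 198452 in the *Apoe* KO mice. All 5 pair-fed *Apoe* KO mice lay above the 4 pair-fed WT mice, with a log2 difference of 0.51 ± 0.17 (adjusted p = 0.131) and a 95% interval of 0.14 to 0.87. Ethanol gave 0.36 ± 0.17 (adjusted p = 0.192) in WT and −0.08 ± 0.16 (adjusted p = 0.744) in *Apoe* KO mice. Per kilobase of exon, *C3* had a mean scaled count of 43450 over the 18 mice, close to *Fga* (42710) and below only *Fgg* (57060) in the set.

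*Cfb*, encoding factor B of the alternative pathway, had the lowest level of the set, 35.4 per kilobase of exon. *Cfb* counted 63, 49, 109 and 39 in the pair-fed WT and 106, 200, 156, 192 and 74 in the pair-fed *Apoe* KO mice. Under ethanol, *Cfb* counted 71, 138, 42, 128 and 37 in the WT and 126, 107, 119 and 46 in the *Apoe* KO mice. The groups overlapped in every comparison, and the widest difference, 1.16 ± 0.34 (adjusted p = 0.0953) between the pair-fed genotypes, was not called. *Cfb* lies 85 bases from *C2* on chromosome 17, and 79.5% of its exon bases are shared with *Gm20547* on the same strand, where reads can be left uncounted.

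*Cfp* encodes properdin, which stabilises the alternative C3 convertase and is known mainly as a product of myeloid cells. It was lower with ethanol in WT mice, and was the gene with the widest difference between the EtOH-fed genotypes. *Cfp* read 1031, 995, 1161 and 2110 in the pair-fed WT and 887, 761, 947, 1301 and 2136 in the pair-fed *Apoe* KO mice. Under ethanol, *Cfp* read 508, 826, 499, 647 and 739 in the WT and 1664, 1050, 1511 and 1788 in the *Apoe* KO mice. All 4 EtOH-fed *Apoe* KO mice lay above all 5 EtOH-fed WT mice, and the latter lay below every pair-fed WT mouse, while the *Apoe* KO groups overlapped. The log2 difference between the EtOH-fed genotypes was 1.22 ± 0.19 (adjusted p = 0.00331), which is 2.33-fold, and 1.16 ± 0.21 (adjusted p = 0.0123) without EtOH-fed *Apoe* KO mouse 1. Ethanol gave −0.995 ± 0.22 (adjusted p = 0.0105) in WT and 0.39 ± 0.25 (adjusted p = 0.285) in *Apoe* KO mice. The difference of these responses, 1.39 ± 0.37 (adjusted p = 0.0457), was the only one called among the 41 genes, and it was lost in 15 of 23 alternatives. Leaving out pair-fed WT mouse 2 or 4 or pair-fed *Apoe* KO mouse 1, 2 or 3 or EtOH-fed WT mouse 1, 3 or 4 or EtOH-fed *Apoe* KO mouse 1, 4 or 5 was enough to lose it. The summed scaled count of 9 Kupffer cell markers ran from 9126 to 14289 in EtOH-fed WT and from 16690 to 28741 in EtOH-fed *Apoe* KO mice, and 8 of the 9 were called higher. The sum of 11 macrophage and monocyte markers ran from 4933 to 7006 and from 9926 to 17817, and 7 of the 11 were called higher. Between the EtOH-fed genotypes, 4.25% of all genes were called higher. In pair-fed WT mice the 2 sums ran from 14607 to 18907 and from 7153 to 11910. With ethanol in WT mice, 3 of the 9 and 2 of the 11 markers were called lower, where 6.52% of all genes were. None of these markers was at 0 in any group, and their part in the *Cfp* differences was not tested.

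**Figure D3:**
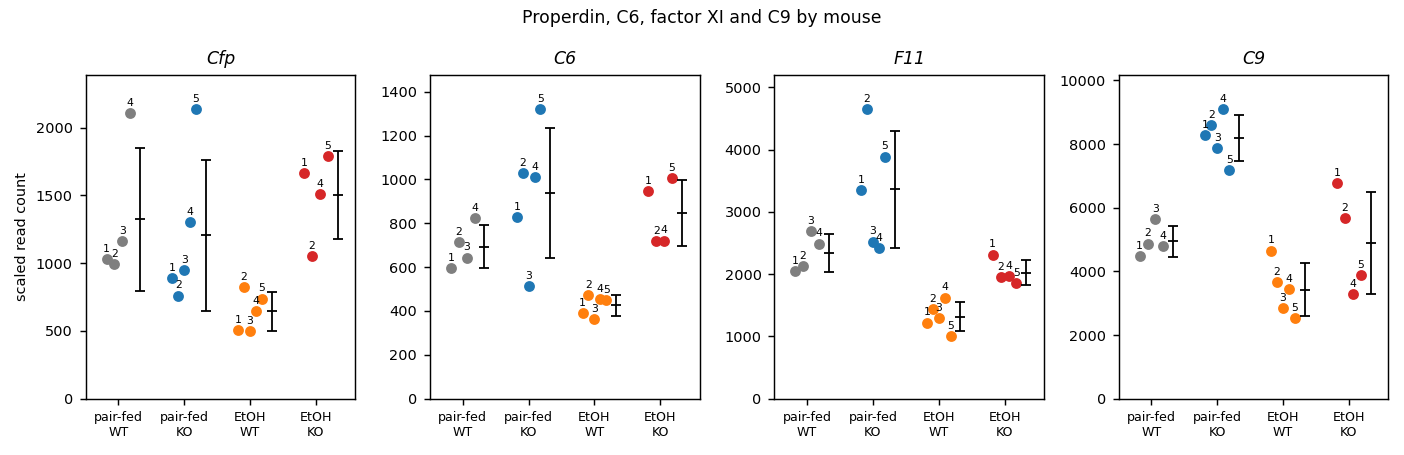
Scaled read counts of *Cfp*, *C6*, *F11* and *C9* in every mouse (points, with the mouse number), by group, with the group mean and SD as bars to the right. In *Cfp*, *C6* and *F11* all 4 EtOH-fed *Apoe* KO points lie above the 5 EtOH-fed WT points. In *C9* the 5 pair-fed *Apoe* KO points, from 7184 to 9093, lie above all others.

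Among the 6 terminal components, 3 rose in pair-fed *Apoe* KO over pair-fed WT mice (*C8a*, *C8b* and *C9*), 3 fell with ethanol in *Apoe* KO mice (*Hc*, *C8a* and *C9*) and 3 fell with ethanol in WT mice (*C6*, *C8g* and *C9*). *C9* forms the pore of the membrane attack complex. *C9* read 4483, 4869, 5638 and 4784 in the pair-fed WT and 8277, 8589, 7880, 9093 and 7184 in the pair-fed *Apoe* KO mice. Under ethanol, *C9* read 4655, 3666, 2852, 3439 and 2521 in the WT and 6762, 5679, 3279 and 3883 in the *Apoe* KO mice. The pair-fed *Apoe* KO mice lay above all other mice, and EtOH-fed WT mouse 1 alone kept its group from lying below the pair-fed WT mice. The log2 difference between the pair-fed genotypes was 0.73 ± 0.10 (adjusted p = 0.00168), or 1.66-fold. Ethanol gave −0.80 ± 0.17 (adjusted p = 0.00529) in *Apoe* KO mice, −0.97 ± 0.15 (adjusted p = 0.0011) without mouse 1, and −0.56 ± 0.16 (adjusted p = 0.032) in WT mice. The last call was lost in 7 of 15 alternatives, with an adjusted p of up to 0.101, among them leaving out pair-fed WT mouse 2, 3 or 4 or EtOH-fed WT mouse 3 or 4.

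*C6*, which binds the C5b fragment, fell with ethanol in WT mice, and the EtOH-fed genotypes did not overlap. *C6* read 594, 715, 643 and 824 in the pair-fed WT and 827, 1030, 514, 1010 and 1320 in the pair-fed *Apoe* KO mice. Under ethanol, *C6* read 390, 472, 363, 455 and 451 in the WT and 946, 718, 721 and 1007 in the *Apoe* KO mice. The 5 EtOH-fed WT mice were the 5 lowest of all 18. The log2 difference with ethanol was −0.70 ± 0.13 (adjusted p = 0.0051) in WT and −0.10 ± 0.22 (adjusted p = 0.787) in *Apoe* KO mice, and that between the EtOH-fed genotypes was 0.98 ± 0.15 (adjusted p = 0.00307), or 1.97-fold. It was 0.92 ± 0.16 (adjusted p = 0.0113) without mouse 1. The difference between the responses, 0.60 ± 0.28 (adjusted p = 0.282), was not called. *Hc*, which encodes complement C5, fell with ethanol in *Apoe* KO mice. *Hc* read 16751, 19707, 16739 and 15109 in the pair-fed WT and 23810, 24494, 21434, 22528 and 21716 in the pair-fed *Apoe* KO mice. Under ethanol, *Hc* read 18477, 17935, 13317, 18554 and 13046 in the WT and 18816, 17523, 15622 and 15122 in the *Apoe* KO mice. All EtOH-fed *Apoe* KO mice lay below the pair-fed *Apoe* KO mice, with a log2 difference of −0.45 ± 0.09 (adjusted p = 0.00447), or −0.50 ± 0.09 (adjusted p = 0.00311) without mouse 1, and in WT mice the difference was −0.08 ± 0.14 (adjusted p = 0.747).

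The 3 chains of C8 behaved unequally. *C8a* and *C8b* encode the alpha and beta chains, which belong to the same protein family as *C9*, and lie 11130 bases apart on chromosome 4, while *C8g* on chromosome 2 encodes the gamma chain, a lipocalin. *C8a* read 4523, 8110, 5583 and 6532 in the pair-fed WT and 12318, 20418, 10244, 11395 and 14121 in the pair-fed *Apoe* KO mice. Under ethanol, *C8a* read 6030, 6647, 5405, 10342 and 4036 in the WT and 8926, 8536, 8020 and 8951 in the *Apoe* KO mice. The pair-fed *Apoe* KO mice lay above all others, except that EtOH-fed WT mouse 4 (10342) passed pair-fed *Apoe* KO mouse 3 (10244). *C8b* read 2501, 2395, 2693 and 2095 in the pair-fed WT and 5065, 7946, 3895, 4513 and 5354 in the pair-fed *Apoe* KO mice. Under ethanol, *C8b* read 2858, 3451, 2675, 4164 and 1998 in the WT and 4210, 3855, 3832 and 4083 in the *Apoe* KO mice. Here the pair-fed *Apoe* KO mice again lay above the pair-fed WT mice, whose highest value was 2693. *C8g* read 10678, 13578, 11799 and 12105 in the pair-fed WT and 8777, 6784, 10070, 9219 and 10407 in the pair-fed *Apoe* KO mice. Under ethanol, *C8g* read 8688, 7359, 8934, 6820 and 10874 in the WT and 7804, 6442, 5703 and 8171 in the *Apoe* KO mice. For *C8g* the pair-fed *Apoe* KO mice lay below the pair-fed WT mice. The log2 difference between the pair-fed genotypes was 1.14 ± 0.19 (adjusted p = 0.00998) for *C8a* and 1.11 ± 0.16 (adjusted p = 0.00373) for *C8b*, a rise by 2.2-fold and 2.15-fold, and −0.42 ± 0.12 (adjusted p = 0.0948) for *C8g*, which was not called.

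The ratio of *C8g* to *C8b* was 5.025 ± 0.810 (SD, n = 4) in pair-fed WT and 1.832 ± 0.631 (SD, n = 5) in pair-fed *Apoe* KO mice, ranges of 4.269 to 5.778 and 0.8538 to 2.585. In EtOH-fed mice it ran from 1.638 to 5.442 in WT and from 1.488 to 2.001 in *Apoe* KO mice. The ratio of *C8a* to *C8b* ran from 1.808 to 3.386 over all 18 mice, a span of 1.872-fold, where that of *C8g* to *C8b* spanned 6.768-fold. These ratios are free of the scaling between mice and were chosen after the values were seen, so they are given as a description. Ethanol gave *C8a* −0.63 ± 0.16 (adjusted p = 0.0123), *C8b* −0.38 ± 0.16 (adjusted p = 0.1) and *C8g* −0.36 ± 0.14 (adjusted p = 0.0713) in *Apoe* KO mice, and 0.03 ± 0.23 (adjusted p = 0.947), 0.29 ± 0.17 (adjusted p = 0.311) and −0.51 ± 0.14 (adjusted p = 0.0259) in WT mice. The fall of *C8g* in WT mice and that of *C8a* in *Apoe* KO mice were called, the latter at −0.65 ± 0.18 (adjusted p = 0.023) without mouse 1, and the former was lost without pair-fed WT mouse 2 or 4 or without EtOH-fed WT mouse 2 or 4.

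**Figure D4:**
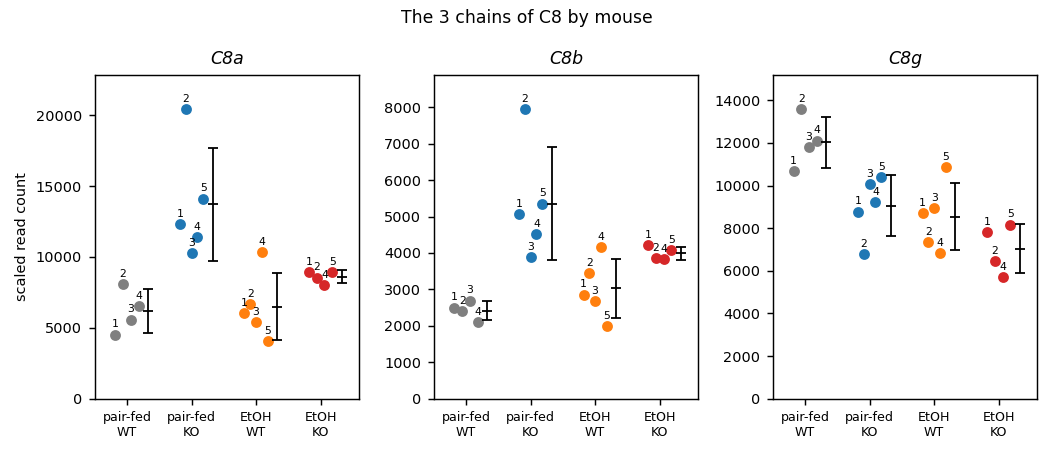
Scaled read counts of *C8a*, *C8b* and *C8g* in every mouse (points, with the mouse number), by group, with the group mean and SD as bars to the right. Pair-fed *Apoe* KO points are above the pair-fed WT points for *C8a* and *C8b* and below them for *C8g*.

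Promoter windows from RefSeq (GRCm38.p6), each from 250 bases before to 50 bases after an annotated start and read on the strand of the gene, were found for 32 of the 41 genes. They are shown for the C8 chains because *C8a* and *C8b* rose between the pair-fed genotypes and *C8g* did not, with the letters of an HNF1 half-site (GTTAAT, or ATTAAC on the other strand) in capitals. HNF1 is a transcription factor of the hepatocyte. *C8g* has 2 annotated starts.
C8a, chr4:104876349-104876648, minus strand: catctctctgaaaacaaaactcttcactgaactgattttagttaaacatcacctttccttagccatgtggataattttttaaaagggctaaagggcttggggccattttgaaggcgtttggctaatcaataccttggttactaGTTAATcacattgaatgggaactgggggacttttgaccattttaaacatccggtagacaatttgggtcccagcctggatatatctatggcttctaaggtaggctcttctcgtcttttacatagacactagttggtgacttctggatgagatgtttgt
C8b, chr4:104766067-104766366, plus strand: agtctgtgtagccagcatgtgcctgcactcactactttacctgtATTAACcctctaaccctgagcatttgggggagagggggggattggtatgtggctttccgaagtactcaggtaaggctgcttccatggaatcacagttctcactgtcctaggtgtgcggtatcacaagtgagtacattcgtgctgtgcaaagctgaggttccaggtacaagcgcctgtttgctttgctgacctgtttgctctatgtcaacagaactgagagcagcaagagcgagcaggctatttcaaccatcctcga
C8g (start 1), chr2:25501670-25501969, minus strand: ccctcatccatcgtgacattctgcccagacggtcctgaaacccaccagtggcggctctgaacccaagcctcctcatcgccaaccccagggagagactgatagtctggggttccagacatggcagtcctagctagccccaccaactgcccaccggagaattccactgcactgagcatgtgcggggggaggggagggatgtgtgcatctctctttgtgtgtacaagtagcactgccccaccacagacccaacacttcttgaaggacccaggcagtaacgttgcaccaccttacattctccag
C8g (start 2), chr2:25500457-25500756, minus strand: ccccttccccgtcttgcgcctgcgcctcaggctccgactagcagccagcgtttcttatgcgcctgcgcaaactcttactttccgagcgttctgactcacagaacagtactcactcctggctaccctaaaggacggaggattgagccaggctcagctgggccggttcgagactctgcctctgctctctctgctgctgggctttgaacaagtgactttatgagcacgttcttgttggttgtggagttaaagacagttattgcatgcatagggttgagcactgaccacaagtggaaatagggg

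The half-site begins 107 bases before the start of *C8a* and 206 bases before that of *C8b*, and these letters are in neither window of *C8g*. Searched on both strands, GTTAAT was found in the windows of 12 of the 32 genes (37.5%) and of 8.24% of all 27025 genes with a window. Of the 12, *C8a*, *C8b* and *F13b* were called higher between the pair-fed genotypes. *C1ra*, *C4bp*, *Cfp*, *F2*, *Fga*, *Fgb*, *Hc*, *Proz* and *Vtn* were not called there. *C9* was called and has a window without these letters, and *Plg* and *Serpinf2* were called and are not among the 12. A relation of the letters to the differences was not tested. The C/EBP motif TTNNGNAA was found in 56.2% of the 32 genes and 44.1% of all genes, the STAT motif TTCNNNGAA in 25% and 9.55%, and the IL-6 response element CTGGGAA in 21.9% and 12.7%. The HNF4 motif CAAAGTCCA was found in 0 of the 32 genes and in 0.555% of all. These are matches of letters, which may overlap each other, and they do not show binding.

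Of the 4 complement inhibitors, *Cfi* fell with ethanol in *Apoe* KO mice, and all 4 had every pair-fed *Apoe* KO mouse above every pair-fed WT mouse without being called. *Cfi* encodes factor I, the protease that cuts C3b and C4b. *Cfi* read 19183, 17927, 19625 and 15117 in the pair-fed WT and 24921, 24939, 23778, 22422 and 23173 in the pair-fed *Apoe* KO mice. Under ethanol, *Cfi* read 19121, 20275, 13177, 21642 and 12760 in the WT and 20007, 17267, 16875 and 15538 in the *Apoe* KO mice. EtOH-fed and pair-fed *Apoe* KO mice did not overlap, with a log2 difference of −0.46 ± 0.09 (adjusted p = 0.00374), and −0.53 ± 0.09 (adjusted p = 0.00184) without mouse 1. *C4bp*, a cofactor of factor I, *Serping1*, the C1 inhibitor, and *Vtn*, vitronectin, were called in no comparison. Between the pair-fed genotypes the log2 differences were 0.41 ± 0.10 (adjusted p = 0.054) for *Cfi*, 0.38 ± 0.12 (adjusted p = 0.112) for *C4bp*, 0.29 ± 0.10 (adjusted p = 0.138) for *Serping1* and 0.44 ± 0.12 (adjusted p = 0.0685) for *Vtn*. Without EtOH-fed *Apoe* KO mouse 1, *Serping1* and *Vtn* were called lower with ethanol in *Apoe* KO mice, at −0.35 ± 0.09 (adjusted p = 0.0163) and −0.42 ± 0.11 (adjusted p = 0.0157).

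Of the vitamin K-dependent clotting proteases, *F7*, *F9* and *F10* fell with ethanol in *Apoe* KO mice and *F2* was not called. *F7* encodes factor VII, which starts clotting with tissue factor. *F7* read 4414, 5049, 4342 and 3500 in the pair-fed WT and 5733, 5370, 5683, 4838 and 4800 in the pair-fed *Apoe* KO mice. Under ethanol, *F7* read 4706, 4310, 4097, 4311 and 3471 in the WT and 4659, 3385, 3549 and 4141 in the *Apoe* KO mice. The *Apoe* KO groups did not overlap, though EtOH-fed mouse 1 (4659) lay close to the lowest pair-fed mouse (4800), and the log2 difference was −0.43 ± 0.11 (adjusted p = 0.0106), and −0.52 ± 0.10 (adjusted p = 0.00413) without mouse 1. *F9*, factor IX, gave −0.39 ± 0.11 (adjusted p = 0.0235) and *F10*, factor X, −0.30 ± 0.10 (adjusted p = 0.0467). The call for *F10* was lost in 10 of 15 alternatives, among them leaving out pair-fed *Apoe* KO mouse 1, 2, 3, 4 or 5 or EtOH-fed *Apoe* KO mouse 2, 4 or 5, and that for *F9* without pair-fed *Apoe* KO mouse 1 or EtOH-fed *Apoe* KO mouse 5. In WT mice the 3 genes gave −0.04 ± 0.12, −0.13 ± 0.15 and −0.08 ± 0.10, none called.

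*F2* encodes prothrombin. *F2* read 59784, 61764, 63641 and 53661 in the pair-fed WT and 76879, 76263, 77524, 76904 and 69810 in the pair-fed *Apoe* KO mice. Under ethanol, *F2* read 65444, 67234, 60572, 62507 and 59370 in the WT and 78994, 61813, 61862 and 60663 in the *Apoe* KO mice. EtOH-fed *Apoe* KO mouse 1 read above every pair-fed mouse, and the other 3 lay below every pair-fed *Apoe* KO mouse. The log2 difference with ethanol in *Apoe* KO mice was −0.21 ± 0.11 (adjusted p = 0.216) with this mouse and −0.30 ± 0.10 (adjusted p = 0.0575) without it, neither of them called.

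In the contact system, *F11* and *Klkb1* fell with ethanol in *Apoe* KO mice, *F11* fell in WT mice too, and *F12* and *Kng1* were not called. *F11* encodes factor XI and *Klkb1* its paralogue plasma prekallikrein, and they lie 4657 bases apart on chromosome 8. *F11* read 2051, 2124, 2689 and 2491 in the pair-fed WT and 3352, 4647, 2523, 2417 and 3885 in the pair-fed *Apoe* KO mice. Under ethanol, *F11* read 1223, 1443, 1292, 1624 and 1002 in the WT and 2313, 1948, 1969 and 1853 in the *Apoe* KO mice. In WT mice the groups did not overlap, nor did those of *Apoe* KO mice, nor did the EtOH-fed genotypes. The log2 difference with ethanol was −0.84 ± 0.14 (adjusted p = 0.00225) in WT and −0.70 ± 0.17 (adjusted p = 0.00997) in *Apoe* KO mice, a fall by 1.79-fold and 1.62-fold. Between the EtOH-fed genotypes it was 0.63 ± 0.14 (adjusted p = 0.0199) and, without mouse 1, 0.56 ± 0.15 (adjusted p = 0.0523). The call was thus lost without that mouse, while the difference changed little. It was also lost without EtOH-fed WT mouse 1 or EtOH-fed *Apoe* KO mouse 4 and with median-of-ratios size factors.

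*Klkb1* read 8453, 7550, 6947 and 8566 in the pair-fed WT and 7287, 6886, 7455, 6886 and 9427 in the pair-fed *Apoe* KO mice. Under ethanol, *Klkb1* read 6887, 4471, 7564, 4806 and 7164 in the WT and 4373, 4206, 4057 and 4910 in the *Apoe* KO mice. All 4 EtOH-fed *Apoe* KO mice lay below the 5 pair-fed *Apoe* KO mice, and the EtOH-fed WT mice were split, with mice 2 and 4 at 4471 and 4806 and the other 3 at 6887 or more. *Klkb1* had the smallest p of the set in *Apoe* KO mice, with a log2 difference of −0.78 ± 0.11 (adjusted p = 0.000234) or 1.72-fold, and −0.78 ± 0.12 (adjusted p = 0.0009) without mouse 1. In WT mice it was −0.38 ± 0.16 (adjusted p = 0.137). The ratio of *F11* to *Klkb1* ran from 0.1399 to 0.6748 over the 18 mice. Of the exon bases of *Klkb1*, 43.2% are shared with *Gm45753* on the same strand. *F12*, factor XII, gave 0.04 ± 0.12 with ethanol in *Apoe* KO mice, a sign that turned with median-of-ratios size factors, and *Kng1*, kininogen, −0.30 ± 0.12 (adjusted p = 0.0869). Without mouse 1 the latter was called, at −0.39 ± 0.11 (adjusted p = 0.0193).

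The 3 chains of fibrinogen, the protein that thrombin turns into the clot, are encoded side by side on chromosome 3 by *Fgg*, *Fga* and *Fgb*. *Fgb* and *Fgg* fell with ethanol in *Apoe* KO mice, and *Fga* narrowly missed the threshold. *Fga* read 106487, 145039, 133319 and 83427 in the pair-fed WT and 145652, 222632, 151410, 146369 and 144112 in the pair-fed *Apoe* KO mice. Under ethanol, *Fga* read 134489, 155806, 66633, 151538 and 54117 in the WT and 107161, 109947, 132740 and 123313 in the *Apoe* KO mice. *Fgb* read 120386, 180111, 140182 and 114543 in the pair-fed WT and 141376, 211028, 168351, 149685 and 155362 in the pair-fed *Apoe* KO mice. EtOH-fed WT mice 3 and 5 had *Fga* values of 66633 and 54117, against 134489 or more in the other 3. Under ethanol, *Fgb* read 139352, 143543, 89236, 141947 and 76486 in the WT and 114427, 108286, 119422 and 128312 in the *Apoe* KO mice. *Fgg* read 109973, 160246, 108802 and 94900 in the pair-fed WT and 136905, 177938, 141091, 131947 and 144699 in the pair-fed *Apoe* KO mice. Under ethanol, *Fgg* read 120966, 126273, 83224, 118734 and 68941 in the WT and 93898, 97324, 110330 and 123359 in the *Apoe* KO mice. For each chain EtOH-fed WT mice 3 and 5 were the lowest of all 18 mice, pair-fed *Apoe* KO mouse 2 was the highest, and the EtOH-fed *Apoe* KO mice lay below every pair-fed *Apoe* KO mouse. In *Apoe* KO mice the log2 difference with ethanol was −0.44 ± 0.16 (adjusted p = 0.058) for *Fga*, −0.48 ± 0.14 (adjusted p = 0.0279) for *Fgb* and −0.46 ± 0.14 (adjusted p = 0.0268) for *Fgg*. Without mouse 1 *Fgb* gave −0.47 ± 0.15 (adjusted p = 0.0473) and *Fgg* −0.41 ± 0.14 (adjusted p = 0.0592), and the latter was then not called. The call of *Fgg* was also lost without EtOH-fed *Apoe* KO mouse 2 or 4, and that of *Fgb* without pair-fed *Apoe* KO mouse 3 or EtOH-fed *Apoe* KO mouse 2 or 4. In WT mice the differences were −0.16 ± 0.31 (adjusted p = 0.789), −0.26 ± 0.22 (adjusted p = 0.491) and −0.20 ± 0.22 (adjusted p = 0.579), with 95% intervals as wide as −0.83 to 0.52 for *Fga*.

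The chains kept their proportions more closely than their levels. The ratio of *Fgg* to *Fgb* ran from 0.7761 to 0.9684 over the 18 mice, a span of 1.248-fold, while the chains themselves spanned 2.581-fold (*Fgg*), 2.759-fold (*Fgb*) and 4.114-fold (*Fga*). The ratio of *Fga* to *Fgb* spanned 1.571-fold and was lowest, at 0.7075, in an EtOH-fed WT mouse. In EtOH-fed WT mice 3 and 5 *Alb* also read 1752712 and 1547096, against 2415915 to 3032672 in the other 3.

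**Figure D5:**
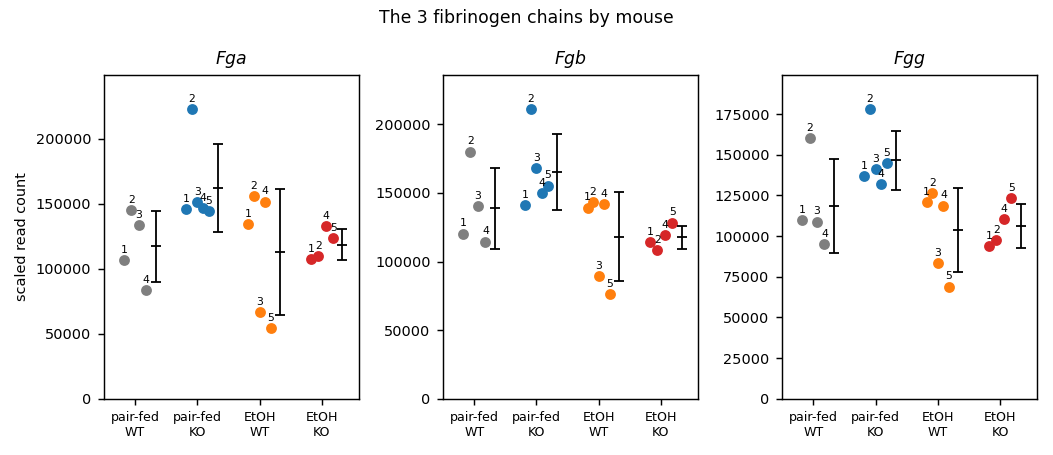
Scaled read counts of *Fga*, *Fgb* and *Fgg* in every mouse (points, with the mouse number), by group, with the group mean and SD as bars to the right. The 3 chains keep the same pattern, with EtOH-fed WT mice 3 and 5 lowest and pair-fed *Apoe* KO mouse 2 highest.

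The windows of the 3 fibrinogen genes are shown because the ratios of these neighbours varied little, with the half-site in capitals as above.
Fgg, chr3:83007474-83007773, plus strand: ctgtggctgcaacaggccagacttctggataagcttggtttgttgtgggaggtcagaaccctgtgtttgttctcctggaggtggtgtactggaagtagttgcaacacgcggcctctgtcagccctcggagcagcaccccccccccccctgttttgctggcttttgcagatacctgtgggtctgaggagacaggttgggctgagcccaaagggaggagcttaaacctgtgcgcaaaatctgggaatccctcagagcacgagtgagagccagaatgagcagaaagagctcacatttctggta
Fga, chr3:83025903-83026202, plus strand: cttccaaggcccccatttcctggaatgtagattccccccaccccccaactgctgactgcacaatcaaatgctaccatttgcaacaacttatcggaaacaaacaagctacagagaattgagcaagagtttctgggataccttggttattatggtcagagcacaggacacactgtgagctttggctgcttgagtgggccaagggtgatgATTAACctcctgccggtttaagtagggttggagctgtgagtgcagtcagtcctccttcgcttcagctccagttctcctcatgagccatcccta
Fgb, chr3:83049814-83050113, minus strand: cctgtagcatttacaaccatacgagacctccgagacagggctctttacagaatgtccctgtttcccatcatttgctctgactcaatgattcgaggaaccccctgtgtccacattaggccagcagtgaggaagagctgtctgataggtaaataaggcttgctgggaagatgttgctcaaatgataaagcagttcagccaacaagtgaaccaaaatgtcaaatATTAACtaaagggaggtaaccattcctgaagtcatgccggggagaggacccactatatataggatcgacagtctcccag

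The half-site begins 43 bases before the start of *Fga* and 29 bases before that of *Fgb*, and these letters are not in the window of *Fgg*. The IL-6 response element is in the windows of *Fgb* and *Fgg*. Of the other 2 genes of the group, *F13b*, the carrier subunit of the factor XIII that cross-links fibrin, rose in pair-fed *Apoe* KO mice and fell with ethanol in *Apoe* KO mice. *F13b* read 5249, 4157, 5884 and 3821 in the pair-fed WT and 7412, 7651, 7715, 8073 and 5990 in the pair-fed *Apoe* KO mice. Under ethanol, *F13b* read 5378, 6165, 5013, 6161 and 4329 in the WT and 6360, 5500, 5895 and 4718 in the *Apoe* KO mice. Pair-fed *Apoe* KO mice lay above all pair-fed WT mice, and the *Apoe* KO groups overlapped at EtOH-fed mouse 1 (6360) and pair-fed mouse 5 (5990). The log2 differences were 0.64 ± 0.13 (adjusted p = 0.0258) and −0.39 ± 0.11 (adjusted p = 0.0204), the latter −0.45 ± 0.11 (adjusted p = 0.0145) without mouse 1. The first call was lost without pair-fed WT mouse 2 or 4 or pair-fed *Apoe* KO mouse 1, 3 or 4 and the second without pair-fed *Apoe* KO mouse 4 or EtOH-fed *Apoe* KO mouse 5. *F5*, the cofactor of factor X, was called in no comparison, with 0.47 ± 0.12 (adjusted p = 0.053) between the pair-fed genotypes and −0.09 ± 0.09 (adjusted p = 0.513) with ethanol in *Apoe* KO mice.

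Of the 5 anticoagulants, *Proc*, *Proz* and *Serpind1* fell with ethanol in *Apoe* KO mice, *Pros1* was higher in *Apoe* KO than in WT mice under ethanol, and *Serpinc1* was called in no comparison. *Proz* encodes protein Z, a cofactor in the inhibition of factor X. *Proz* read 11680, 12586, 11508 and 10064 in the pair-fed WT and 12553, 14496, 12220, 11708 and 12880 in the pair-fed *Apoe* KO mice. Under ethanol, *Proz* read 10278, 10288, 9342, 10261 and 8345 in the WT and 9133, 7311, 8900 and 9920 in the *Apoe* KO mice. All EtOH-fed *Apoe* KO mice lay below the pair-fed *Apoe* KO mice, with a log2 difference of −0.54 ± 0.10 (adjusted p = 0.00231), and −0.56 ± 0.11 (adjusted p = 0.00443) without mouse 1. *Serpind1* encodes heparin cofactor II, an inhibitor of thrombin. *Serpind1* read 11115, 9455, 12450 and 7464 in the pair-fed WT and 13596, 12844, 14842, 14005 and 12626 in the pair-fed *Apoe* KO mice. Under ethanol, *Serpind1* read 12133, 12771, 9633, 15679 and 8760 in the WT and 10596, 9737, 10546 and 8990 in the *Apoe* KO mice. The *Apoe* KO groups again did not overlap, with −0.45 ± 0.09 (adjusted p = 0.00289), while in WT mice the difference was positive at 0.22 ± 0.18 (adjusted p = 0.472). The difference of these responses, −0.66 ± 0.21 (adjusted p = 0.0989), was not called, but was so without pair-fed WT mouse 3 or EtOH-fed WT mouse 5. Without EtOH-fed *Apoe* KO mouse 1, *Serpind1* gave −0.48 ± 0.09 (adjusted p = 0.00394) with ethanol in *Apoe* KO mice. *Proc*, protein C, ranged from 18266 to 22426 in pair-fed and from 14281 to 17579 in EtOH-fed *Apoe* KO mice, with −0.40 ± 0.10 (adjusted p = 0.0103).

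*Pros1* encodes protein S, the cofactor of protein C. *Pros1* read 2339, 2273, 2086 and 2147 in the pair-fed WT and 2779, 2829, 2866, 2859 and 2375 in the pair-fed *Apoe* KO mice. Under ethanol, *Pros1* read 2278, 2161, 1847, 1851 and 1827 in the WT and 2920, 2740, 2587 and 2411 in the *Apoe* KO mice. In both diets all *Apoe* KO mice lay above all WT mice. Between the EtOH-fed genotypes the log2 difference was 0.42 ± 0.11 (adjusted p = 0.0413), a call that was kept in 5 of 15 alternatives and lost without EtOH-fed WT mouse 2, 3, 4 or 5 or EtOH-fed *Apoe* KO mouse 1, 2, 4 or 5, and between the pair-fed genotypes 0.31 ± 0.09 (adjusted p = 0.0877). *Serpinc1* encodes antithrombin. *Serpinc1* read 71331, 65382, 67107 and 63477 in the pair-fed WT and 69471, 64673, 73879, 70068 and 66952 in the pair-fed *Apoe* KO mice. Under ethanol, *Serpinc1* read 71075, 69263, 69983, 68812 and 71804 in the WT and 70891, 59842, 64249 and 61151 in the *Apoe* KO mice. The 4 groups overlapped, and over the 18 mice the highest value was 1.235 times the lowest, the narrowest span of the set. Its log2 difference with ethanol in *Apoe* KO mice was −0.11 ± 0.10 (adjusted p = 0.482) with a 95% interval of −0.33 to 0.11.

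Of the 3 fibrinolysis genes, *Plg* and *Serpinf2* rose in pair-fed *Apoe* KO mice and fell with ethanol in *Apoe* KO mice. *Plg* encodes plasminogen, the precursor of the protease that dissolves fibrin. *Plg* read 37057, 29808, 43912 and 18984 in the pair-fed WT and 62900, 66343, 60267, 61124 and 44564 in the pair-fed *Apoe* KO mice. Under ethanol, *Plg* read 40417, 48281, 27727, 47734 and 20697 in the WT and 49392, 46253, 43448 and 35139 in the *Apoe* KO mice. The pair-fed *Apoe* KO mice lay above the pair-fed WT mice, by as little as 44564 against 43912, and pair-fed WT mouse 4 was the lowest of all 18. The log2 difference between the pair-fed genotypes was 0.92 ± 0.21 (adjusted p = 0.0401) or 1.89-fold, and that with ethanol in *Apoe* KO mice −0.44 ± 0.14 (adjusted p = 0.0358), or −0.50 ± 0.15 (adjusted p = 0.0283) without mouse 1. Both calls were lost in 8 of 15 alternatives, the first without pair-fed WT mouse 1, 2 or 4 or pair-fed *Apoe* KO mouse 1, 2, 3 or 4 and the second without pair-fed *Apoe* KO mouse 1, 2, 3 or 4 or EtOH-fed *Apoe* KO mouse 4 or 5, among others. *Serpinf2* encodes alpha 2-antiplasmin, the inhibitor of plasmin. *Serpinf2* read 21672, 25030, 22405 and 19671 in the pair-fed WT and 29297, 33327, 33269, 30494 and 27182 in the pair-fed *Apoe* KO mice. Under ethanol, *Serpinf2* read 23238, 23844, 23958, 28537 and 16583 in the WT and 24871, 20941, 20547 and 23801 in the *Apoe* KO mice. Its log2 differences were 0.47 ± 0.11 (adjusted p = 0.0455) between the pair-fed genotypes and −0.45 ± 0.10 (adjusted p = 0.00675) with ethanol in *Apoe* KO mice, where the groups did not overlap, and −0.50 ± 0.10 (adjusted p = 0.0059) without mouse 1. The first call was lost in 10 of 15 alternatives, among them leaving out pair-fed WT mouse 1, 2 or 4 or pair-fed *Apoe* KO mouse 1, 2, 3 or 4, and the second in 0 of 15. *Cpb2*, the carboxypeptidase that protects fibrin, was called in no comparison and gave −0.15 ± 0.09 (adjusted p = 0.249) with ethanol in *Apoe* KO mice.

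The other genes of both cascades that are no members of the set are mostly receptors, cell-surface regulators and products of other cells. They were called in both directions with ethanol in *Apoe* KO mice, where 16.3% of all genes were called higher and 6.92% lower. Of 29 other complement genes listed, 10 were called higher and 4 lower, with a median log2 difference of 0.44, and of 30 other coagulation and fibrinolysis genes 11 higher and 5 lower, with a median of 0.27. Those called lower include *Serpina10* (−0.58 ± 0.11, adjusted p = 0.00207) and *Hrg* (−0.42 ± 0.11, adjusted p = 0.0178), which are known products of hepatocytes. Those called higher include *C3ar1*, the C3a receptor (1.56 ± 0.21, adjusted p = 0.000234), *C1qc* (0.94 ± 0.19, adjusted p = 0.00304) and *Vwf*, an endothelial product (1.89 ± 0.25, adjusted p = 0.000216). In WT mice the counts were 1 higher and 2 lower of 29 and 1 higher and 3 lower of 30. Of all genes, 6.19% were called higher there and 6.52% lower.

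Markers of other liver cells also differed between the groups, both where the set moved and where it moved little. With ethanol in WT mice, where the median of the set was −0.08, 7 of 10 sinusoidal endothelial markers were called higher (6.19% of all genes) and 0 lower. Their median log2 difference was 0.62. Stellate cell markers gave 0 calls there, and 0 higher and 1 lower between the pair-fed genotypes, with a median of −0.02. With ethanol in *Apoe* KO mice, 9 of 10 sinusoidal endothelial markers were called higher, where 16.3% of all genes were called higher and 6.92% lower. Their summed scaled counts were 5794 to 8469 when pair-fed and 10071 to 16745 under ethanol. Of 10 stellate cell markers 8 were higher, with sums of 15894 to 20986 and 25283 to 45249. Of 9 Kupffer cell markers 3 were higher, with sums of 13077 to 22766 and 16690 to 28741. Of 12 hepatocyte markers 1 was higher and 4 lower, with a median log2 difference of −0.27, beside −0.38 for the 41 genes. Their sums were 3233104 to 4080456 when pair-fed and 2519539 to 3458358 under ethanol. Much of these sums is 1 gene, *Alb*, at 2211992 to 3030524 and 1567718 to 2413264. Between the pair-fed genotypes, where the set was higher in *Apoe* KO mice, 2 of the 10 sinusoidal endothelial markers were called lower (0.864% of all genes). The median log2 difference of the 10 was −0.46. Their sums of 8734 to 9896 in WT and 5794 to 8469 in *Apoe* KO mice did not overlap. None of the 12 hepatocyte markers was called there, with a median of 0.28 and sums of 2637012 to 3474055 and 3233104 to 4080456, again with much of them from *Alb*. The part of these shifts in either difference of the set was not tested.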

How the data were processed

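PolyA-selected liver RNA of the 18 mice was sequenced by the authors. Per the submitters' processing notes the tools were Trimmomatic, FastQC, HISAT2, SAMtools, featureCounts and DESeq2, with no versions given, and the build was GRCm38. The deposited values are a signal: the authors had scaled the read counts per gene to a nearly common total and rounded them, by a step that is not given in the sources used here. As raw counts could not be recovered, no count test was run, although one had been planned for the case of raw counts. The table holds 15247 lines, of which 195 repeat 56 genes with identical values and were dropped. The fold changes and p-values of the authors' own comparison were not used, and 0 columns of values per mouse were left out.

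Groups were taken from the titles. Each comparison used limma 3.58.1 (R 4.3.3) with an intensity trend on log2(value + 1) over only the groups compared, and all 18 mice for the interaction, with Benjamini-Hochberg adjustment over 15052 genes. On simulated data for the EtOH-fed genotypes (15052 genes, 200 of them changed) 78 of 100 genes changed by 1 and 96 of 100 changed by 2 on the log2 scale were called, and 7 unchanged genes. The changed genes were drawn from those with a mean above 100. Smaller changes, the size of most differences of the set, were not simulated, so the power to call them is unknown. Alternatives tried were size factors by median of ratios, a pseudocount of 0.1, a mean value of at least 100, sample quality weights, all 4 groups in one fit, the mouse number as a block and leaving out each mouse. The block fits kept only mice whose number occurred in every group compared.

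Every member is named. Values in every mouse are given for members called in a comparison (at most the 8 with the smallest p per comparison and direction), those with the largest and smallest difference, and 12 well-known members. Other genes are named, at most 3 per list and direction by p, where they passed the test. The members and gene lists were chosen with earlier results of these data known. Exon overlaps and lengths come from GENCODE M21 (GRCm38), and promoters from RefSeq (GRCm38.p6). Ratios, tables and figures were made in Python 3.11.15 with pandas 2.3.3, numpy 2.4.6 and matplotlib 3.10.9.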

Additional observations from a re-analysis of the deposited data

Results flagged for a closer look

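In groups of 4 or 5 mice, the highest or lowest mouse was set against its group by its distance from the next mouse, divided by the whole range of the group. Of 204 groups of values 16 held a mouse beyond the 1 in 20 level of this measure, where chance alone gives about 10. The groups include single genes and means of the same genes in the same mice. They are thus not independent, and the number from chance is only a rough guide. EtOH-fed *Apoe* KO mouse 1, the library that went against its sex label, was far above the others for *Mbl2* (a share of 0.989), *F2* (0.926), the mean of the vitamin K-dependent proteases (0.909) and the mean of all 41 genes (0.898). Mouse 5 of this group was low for *Cfb* (0.837).

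Pair-fed *Apoe* KO mouse 5 was low for *F2* (0.844), *F13b* (0.714), *Pros1* (0.836) and *Plg* (0.759) and high for *Klkb1* (0.747). Pair-fed *Apoe* KO mouse 2 was high for *Fga* (0.886) and for the mean of all 41 genes (0.816). Pair-fed WT mouse 4 was low for the mean of the vitamin K-dependent proteases (0.908) and of the anticoagulants (0.853). EtOH-fed WT mouse 3 was low for *Mbl2* (0.838), and mouse 5 high for *Proc* (0.743).

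The response of *Cfp* to ethanol differed between the genotypes, by 1.39 on the log2 scale (adjusted p = 0.0457, limma interaction), with a positive value in *Apoe* KO and a negative one in WT mice.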

How the results depend on the processing

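None of the 37 calls changed direction under the alternatives run, and over their values 468 kept their side of the threshold and 95 lost it. Among genes that were not called, size factors by median of ratios turned the sign of 14 between the EtOH-fed genotypes, 1 for ethanol in *Apoe* KO mice (*F12*) and 3 for the interaction. Of the 20 genes called lower with ethanol in *Apoe* KO mice, 14 were kept in every alternative, and leaving out each mouse gave 16 to 23 calls. Leaving out each mouse gave 4 to 6 calls for ethanol in WT mice, 3 to 11 between the pair-fed genotypes, 2 to 4 between the EtOH-fed genotypes and 0 to 3 for the interaction. Median-of-ratios size factors moved the median of all genes by −0.13 between the EtOH-fed genotypes, −0.12 for ethanol in *Apoe* KO mice and −0.14 for the interaction. With them the medians of the set were −0.0608, −0.51 and −0.40, and the calls were 2, 25 (*C2*, *C8b*, *C8g*, *Fga* and *Serping1* added) and 0. The median of the set minus that of all genes was −0.51 for ethanol in *Apoe* KO mice under both scalings. Calls between the pair-fed genotypes were 11 with a mean of at least 100 and 10 with sample quality weights. The interaction gave 0 calls with a pseudocount of 0.1 and 0 with a mean of at least 100. The cause of these changes was not tested. Depth per mouse is unknown, which limits *Cfb* and *C6* most, the members with the lowest levels per length.

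Whether the mouse numbers pair the mice could not be settled from 4 pairs per comparison. The deviations of same-numbered mice correlated above 0.1 in 3, 0, 1 and 1 of 4 pairs (EtOH-fed genotypes, pair-fed genotypes, ethanol in WT, ethanol in *Apoe* KO). Of 4 mice, 2, 1, 0 and 1 correlated best with their own number. The mean correlation was 0.189, −0.00825, −0.0753 and 0.0605 for same-numbered mice. For other pairs of mice it was −0.0474, 0.00215, 0.019 and −0.015. With the number as a replicate block, these comparisons gave 4, 6, 5 and 18 calls and the interaction 5. Those fits kept only mice whose number occurred in every group compared. In the same order, EtOH-fed WT mouse 3, pair-fed *Apoe* KO mouse 5, EtOH-fed WT mouse 5 and pair-fed *Apoe* KO mouse 3 were left out. The interaction kept mice 1, 2 and 4 of each group. Effects of the block and of the mice left out were not separated.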

Other observations

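Other hepatocyte programmes were called in both directions with ethanol in *Apoe* KO mice, by limma with Benjamini-Hochberg adjustment. Of all genes, 16.3% were called higher in that comparison and 6.92% lower, and counts of short lists near these shares do not set a list apart. Of 29 listed regulators of secreted hepatocyte genes 10 were called lower and 3 higher, with a median log2 difference of −0.26, beside 0.13 over all genes. *Nr0b2*, a bile acid-induced repressor, fell by 2.92 on the log2 scale (SE 0.27, adjusted p = 2.1e-05), and *Socs3*, an inhibitor of cytokine signalling, by 1.32 (SE 0.17, adjusted p = 0.000186). In WT mice 6 were lower and 2 higher, where 6.52% of all genes were called lower and 6.19% higher. *Foxa3*, a liver transcription factor, was at 0.81 ± 0.11 there (SE, adjusted p = 0.000555).

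Of 23 acute-phase genes, 6 were called higher and 5 lower with ethanol in *Apoe* KO mice. *Orm3* rose by 1.73 ± 0.26 (SE, adjusted p = 0.000551) and *Saa4* gave −1.04 ± 0.13 (SE, adjusted p = 0.000173). Between the EtOH-fed genotypes 6 acute-phase genes were higher in *Apoe* KO mice and 0 lower, where 4.25% of all genes were higher and 0.445% lower. *Saa2* was at 2.65 ± 0.40 there (SE, adjusted p = 0.00308). Of 19 other secreted hepatocyte proteins 2 were higher and 2 lower with ethanol in *Apoe* KO mice, among them *Serpina6*, the corticosteroid carrier, at −1.14 ± 0.20 (SE, adjusted p = 0.00156). Of 10 genes of the vitamin K cycle and of factor processing 2 were higher and 1 lower, among them *Pdia4*, a protein disulfide isomerase, at 0.85 ± 0.16 (SE, adjusted p = 0.00197).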
